A study of Mus musculus with 2 samples.

Results

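The MYC, MAX and MXD network was followed through 10 genes, Myc, Mycn, Mycl, Max, Mxd1, Mxd3, Mxd4, Mxi1, Mnt and Mlx, taken by name from 43346 Ensembl genes measured in mouse megakaryocytes. Megakaryocytes are the blood cells that shed platelets. The cells were primary cells of mouse embryos at day 14.5, with males and females pooled, and the labels name no strain, genotype change or treatment. A single group of 2 libraries of polyadenylated RNA was made, numbered replicate 1 and replicate 2, and both cite the same biosample and donor. The spread between them may therefore be partly technical, no condition was compared, and no test between groups was possible.

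The proteins of this network share a basic helix-loop-helix leucine zipper, with which they pair and grip DNA at E-boxes. MYC proteins pair with MAX and switch on genes for ribosomes, metabolism and the cell cycle. MXD1, MXD3, MXD4, MXI1 and MNT pair with the same MAX and repress such genes through SIN3 corepressors, and MXD proteins commonly take over from MYC as blood cells mature. MLX is a MAX-like partner that serves MXD1, MXD4, MNT and the glucose-sensing MONDO factors.

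The libraries differed in depth and in markers of other cells. Replicate 1 held 42099208 rounded counts and replicate 2 held 2275920, so a count of 0 allowed up to 3 counts, or 0.0713 CPM (each gene's counts relative to its library's sum) in replicate 1 and 1.32 CPM in replicate 2. All 12 megakaryocyte markers reached a mean of 1 TPM (a level scaled by transcript length and library depth). Their summed level was 18456 TPM in replicate 1 and 26727 TPM in replicate 2. By scaled counts (below), 4 of these 12 were at least 2-fold higher in replicate 2, 2 lower (Pf4 and Ppbp) and 6 within 2-fold. Over all genes with a mean of at least 100 counts, 15.7% were higher and 33.8% lower. Pf4 stood at 2932 and 633 TPM. The 10 macrophage markers summed to 874 and 229 TPM, with Cd163 and Timd4 at 0 in both libraries, and the 10 granulocyte markers summed to 862 and 150 TPM, with Ctsg, S100a8, S100a9, Camp and Ltf at 0 in replicate 2 only. All 7 macrophage and all 7 granulocyte markers measured, at a mean of at least 100 counts, were at least 2-fold lower in replicate 2. Over all such genes 33.8% were lower. Some markers passed that minimum only through the deeper replicate 1, such as Marco with 2282 and 1 counts and Ctsg with 1370 and 0. Erythroid markers summed to 9588 and 15956 TPM, and stem and progenitor markers to 142 and 277 TPM. Of 6 measured erythroid markers, 1 (Hba-a1, 4480 and 12715.5 TPM) was at least 2-fold higher in replicate 2, 1 lower and 4 within. Of 3 measured stem and progenitor markers, 1 (Meis1, 117 and 270 TPM) was higher and 2 (Cd34 and Kit) were lower. Hepatocyte markers summed to 1.68 and 1.82 TPM and lymphoid markers to 3.14 and 1.25 TPM. The part of other cell types in the values of the network genes was not tested, and in bulk RNA fewer cells of a type and less RNA per cell cannot be told apart.

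Sequences that bear on the transcript forms and on the network's own binding site are given before the values, 5′ to 3′. Max is spliced with or without a short coding exon near its start, and the 2 annotated forms that were quantified differ in it. The exon has 27 bases, or 9 codons, at chr12:76961263-76961289 (GRCm38, minus strand). It is shown in capitals between 12 bases of each neighbouring exon, over the same junction without it.
Max-202: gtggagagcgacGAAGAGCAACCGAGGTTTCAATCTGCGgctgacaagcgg
Max-201: gtggagagcgacgctgacaagcgg

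The 4 MXD genes share an exon of 30 bases followed by an exon of 115 bases, and the short exon codes for the start of the basic region that contacts DNA. It lies at chr6:86663071-86663100 in Mxd1, chr13:55328614-55328643 in Mxd3, chr5:34184314-34184343 in Mxd4 (these 3 on the minus strand) and chr19:53346451-53346480 in Mxi1. Of its 30 bases, 17 are identical in all 4 genes and are written in capitals. The closest pair is Mxd1 and Mxi1, with 25 identical bases, and the most distant is Mxd1 and Mxd3, with 19. These exons are shown because the second Mxd4 transcript, Mxd4-202, lacks its copy.
Mxd1-201 exon 3: aTCaactCACAAtGAaaTgGAaAAGaaCaG
Mxd3-201 exon 3: gTCtgtgCACAAcGAgcTgGAgAAGcgCaG
Mxd4-201 exon 3: gTCttcaCACAAcGAacTaGAaAAGcaCaG
Mxi1-201 exon 3: aTCtacaCACAAtGAgtTgGAaAAGaaCcG

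**Figure D1:**
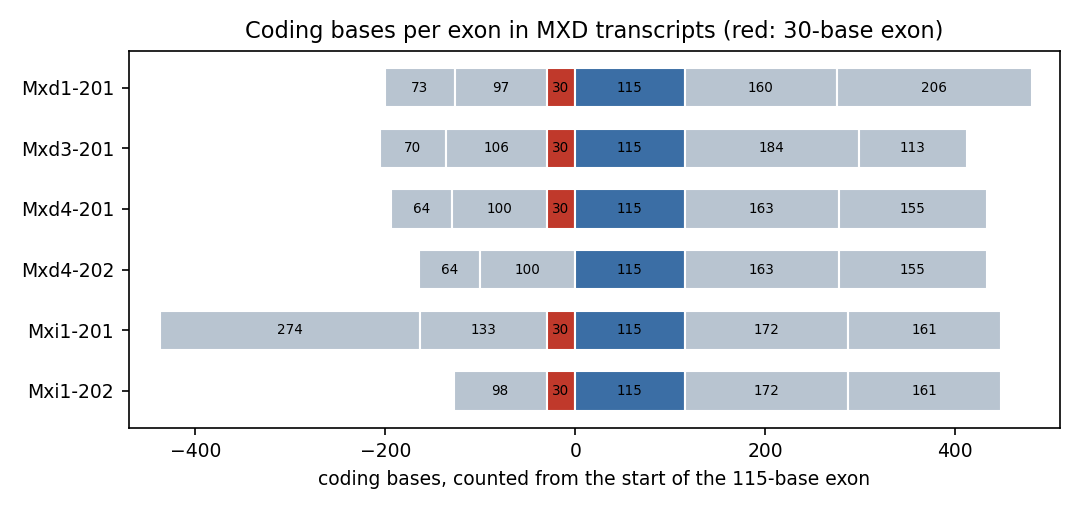
Coding bases of each exon (horizontal axis, in bases from the start of the 115-base exon) in 6 MXD transcripts of the GENCODE M21 annotation. The 30-base exon (red) precedes the 115-base exon (dark blue) in every transcript drawn except Mxd4-202, and Mxi1-201 has 274 coding bases in a first exon that Mxi1-202 lacks.

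Mxi1 starts from 2 separate regions 18.9 kilobases apart, and its transcripts differ by which one they use. RefSeq gave 3 windows for Mxi1, and the 250 bases before the start are shown for the first 2 by position (GRCm38.p6, plus strand). They are chr19:53310256-53310505 for the upstream start, with a GC content of 55.2%, and chr19:53329163-53329412 for the downstream start, with 60.0%.
Mxi1 upstream: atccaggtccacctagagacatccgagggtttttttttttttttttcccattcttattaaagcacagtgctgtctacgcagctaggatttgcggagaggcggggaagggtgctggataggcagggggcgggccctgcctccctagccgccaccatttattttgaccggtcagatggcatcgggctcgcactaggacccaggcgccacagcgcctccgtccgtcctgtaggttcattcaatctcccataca
Mxi1 downstream: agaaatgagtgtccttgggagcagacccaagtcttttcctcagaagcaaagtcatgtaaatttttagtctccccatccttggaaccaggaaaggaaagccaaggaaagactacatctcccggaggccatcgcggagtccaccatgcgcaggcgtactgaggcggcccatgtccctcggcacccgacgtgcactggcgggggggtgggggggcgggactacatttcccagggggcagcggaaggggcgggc

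The E-box that MAX pairs bind best, CACGTG, reads the same on both strands. It was searched in the windows of 300 bases around RefSeq starts (250 before and 50 after). Of the 10 genes, 9 had a window, and 4 of these 9 held the E-box, namely Max, Mxd4, Mnt and Mlx. Of all 32851 windows 7.15% held it, and of 7440 symbols at a mean of 1 TPM or more 12.2% did. The E-box, in capitals, began 3 bases before the start in Max (chr12:76962234-76962263, minus strand), 219 before it in Mxd4 (chr5:34187912-34187941, minus strand), 123 before it in Mnt (chr11:74830789-74830818, plus strand) and 40 before it in Mlx (chr11:101087238-101087267, plus strand). A match is a string of letters and does not show binding.
Max E-box: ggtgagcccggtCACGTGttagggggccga
Mxd4 E-box: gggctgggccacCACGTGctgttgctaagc
Mnt E-box: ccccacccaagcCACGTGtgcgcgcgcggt
Mlx E-box: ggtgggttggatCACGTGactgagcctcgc

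Of the 10 network genes, 9 reached a mean of 1 TPM, against 22.7% of all genes. In replicate 1 that level was reached by 9 of them and in replicate 2 by 8, without a share over all genes for each library. Mycl was listed at 0 counts in both libraries. The genes covered a wide range of mean levels, with Myc, Mycn and Max at the top, Mnt and Mxd1 next, and Mxd4, Mxi1, Mlx and Mxd3 below. The range of Max between the libraries lay inside that of Mycn and overlapped that of Mnt.

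Among the MYC genes, Myc (ENSMUSG00000022346, chromosome 15, 61985391 to 61990374, GRCm38) was the most abundant member, at 203 TPM from 10918 counts in replicate 1 and 290 TPM from 677 counts in replicate 2. Those levels ranked 726 and 538 among all genes. Mycn (chromosome 12, 12936093 to 12941914), a close relative known for its part in embryonic tissue and in blood stem cells, stood at 75.1 TPM from 7435 counts and 209 TPM from 837 counts. It ranked 1593 in replicate 1 and 679 in replicate 2. The replicate 2 level of Mycn lay above the replicate 1 level of Myc, so their ranges overlapped, although Myc was higher within each library. Mycn made up 27.0% of the summed MYC level in replicate 1 and 41.9% in replicate 2, shares that depend on the transcript lengths used (below). Mycl (chromosome 4, 122995652 to 123002485), the third family member, had no count in either library. At 0 counts its level could lie up to 0.0713 CPM in replicate 1 and 1.32 CPM in replicate 2, by counting error alone.

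Max (ENSMUSG00000059436, chromosome 12, 76937269 to 76962201), the partner that all MYC proteins need, had nearly the same level in both libraries, 85.2 TPM from 6173 counts and 88.1 TPM from 302 counts, a mean of 86.6 ± 2.04 (SD, n = 2). Summed Myc and Mycn levels were 278 TPM in replicate 1 and 500 TPM in replicate 2, or 3.27 and 5.67 times that of Max. The summed repressor genes reached 145 and 157 TPM, or 1.70 and 1.78 times Max. The MYC genes together thus stood 1.92 times above the repressors in replicate 1 and 3.19 times above them in replicate 2. These are RNA levels, and protein amounts were not measured. The MYC sums and their ratios depend on the transcript length used for Myc, whose level was 123 and 163 TPM with a longer one (below). The ratios are not given at that length.

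Among the repressors, Mnt (ENSMUSG00000000282, chromosome 11, 74830920 to 74845725), the broadly expressed antagonist of MYC, was highest at 56.8 TPM from 8452 counts and 86.3 TPM from 695 counts. Mxd1 (chromosome 6, 86647042 to 86669161), which is known to come up in maturing myeloid cells, followed at 43.8 TPM from 7770 counts and 46.4 TPM from 389 counts. Its ranges did not overlap those of Mnt above it or of Mxd4 below it. Mxd4 (chromosome 5, 34173883 to 34187720) had 25.1 TPM from 3016 counts in replicate 1 and 9.38 TPM from 58 counts in replicate 2. Mxi1 (chromosome 19, 53310518 to 53375810) had 14.2 TPM from 2767 counts and 14.6 TPM from 133 counts, within the range of Mxd4. Mnt took 39.2% of the summed repressor level in replicate 1 and 55.1% in replicate 2, and Mxd1 took 30.2% and 29.6%.

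Mxd3 (chromosome 13, 55325168 to 55329823), the member linked to cycling cells, was the lowest repressor, at 4.92 TPM from 230 counts in replicate 1, and had 0 counts in replicate 2. Mlx (ENSMUSG00000017801, chromosome 11, 101087277 to 101092207) stood at 12.02 TPM from 451 counts and 3.37 TPM from 8 counts, and its range overlapped that of Mxd3. Values of Mxd3, Mlx, Mxd4 and Mxi1 carry the limit that another gene overlaps each on the opposite strand, among them Prelid1 at Mxd3 and Psmc3ip at Mlx, and the use of strand in counting is not given in the sources used here.

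**Figure D2:**
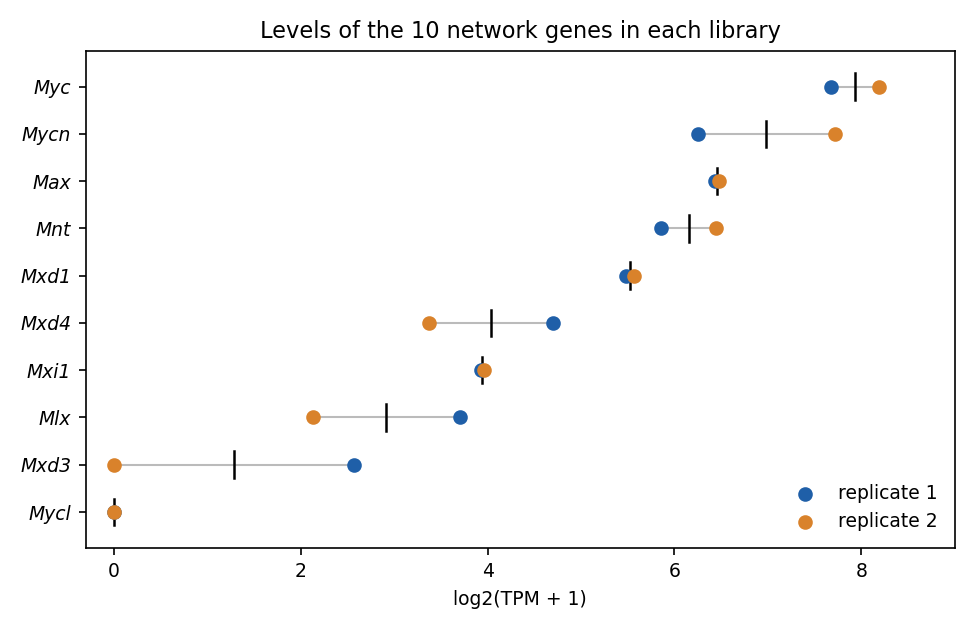
Levels of the 10 network genes as log2(TPM + 1) in replicate 1 (blue) and replicate 2 (orange), ordered by mean TPM, with a black bar at the mean of the 2 plotted values. Max, Mxd1 and Mxi1 have nearly coincident points, Mycn and Mxd3 lie far apart, and Mycl is at 0 in both.

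The order of Myc and Mycn in replicate 2 rested on the transcript lengths used. The deposited level of Myc is divided mostly by the length of Myc-208, a model of 1362 bases that is almost all coding sequence. With the longest deposited transcript length of each gene as a fixed length in both libraries (2390 bases for Myc, from Myc-207, whose M21 model is shorter), an alternative added after the data were seen, Myc came to 123 TPM in replicate 1 and to 163 TPM in replicate 2. Mycn had 74.8 and 179 TPM on that scale, above Myc in replicate 2. The mean of Myc moved from 247 to 143 TPM and stayed above that of Mycn, which moved from 142 to 127 TPM. That of Mlx moved from 7.70 to 4.33 TPM. Apart from Myc, the means of all members with counts moved by less than their SD between the libraries.

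The libraries were then compared by the ratio of replicate 2 to replicate 1 of counts scaled by TMM (edgeR's trimmed mean of log ratios), for genes with a mean of at least 100 counts. Such ratios compare 2 libraries and have no replicate check, and their exact 95% intervals (Clopper-Pearson) cover counting error only. Of 9 members measured, 2 were at least 2-fold higher in replicate 2, against 15.7% of 8194 genes, and 3 were at least 2-fold lower, against 33.8% of genes. The median log2 ratio of the 9 was 0.29, against -0.30 for all genes at this count. Replicate 1 was 18.5 times deeper, and all 3 lower genes, Mxd4, Mlx and Mxd3, passed the minimum only through their counts in it. They had 58, 8 and 0 counts in replicate 2. At a mean of at least 10 CPM, added after the data were seen, 2 of 7 members were higher, against 20.1% of all genes, and 1 was lower, against 24.2%. The members' counts are therefore given as a description.

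Mycn had the highest ratio, 2.82 (interval 2.62 to 3.03), and it stayed past 2-fold under each scaling tried, from 2.08 with total counts to 2.89 with DESeq2 size factors. Mnt had a ratio of 2.06 (interval 1.90 to 2.22), which dropped to 1.52 with total counts and to 1.35 after removal of the trend with GC content, under 2-fold in both. Myc had 1.55 (interval 1.43 to 1.68). The interval of Mycn lay above those of Myc and Mnt, so the MYC genes differed unequally between these libraries by more than counting error.

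Max, Mxd1 and Mxi1 had ratios close to each other, at 1.22 (interval 1.09 to 1.37), 1.25 (interval 1.13 to 1.39) and 1.203 (interval 1.003 to 1.43). Total counts turned these 3 to 0.905, 0.926 and 0.889. That scaling shifted the median of all genes by -0.44 on the log2 scale, an equal shift for every gene. With the GC trend removed the 3 ratios were 1.501, 1.46 and 1.55, above the 1.35 of Mnt, while the median of all genes moved by 0.03.

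On the lower side, Mxd4 had a ratio of 0.481 (interval 0.365 to 0.624) and Mlx one of 0.444 (interval 0.190 to 0.882), or 2.08-fold and 2.25-fold lower in replicate 2. After removal of the GC trend they were 0.582 and 0.514, within 2-fold. Mxd3 was also lower in replicate 2, with an interval of 0 to 0.405 for its ratio. Set at a floor of 3 counts in that library, it came out as 3.06-fold lower. That is a larger difference than the upper end of its interval gives. The value of Mlx rests on 8 counts in replicate 2 and that of Mxd3 on none.

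**Figure D3:**
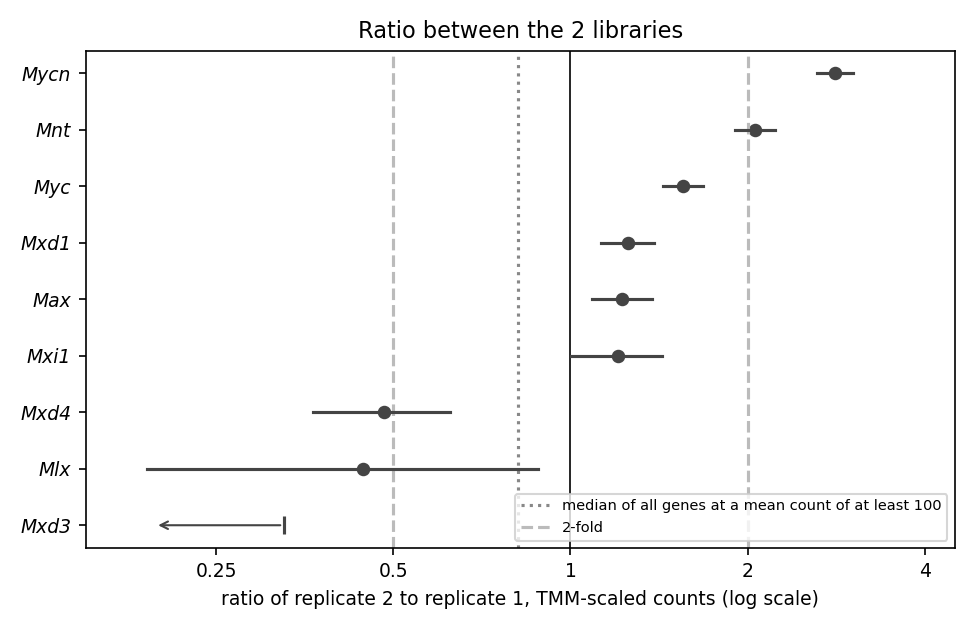
Ratio of replicate 2 to replicate 1 of TMM-scaled counts (log axis) for the 9 members with counts, with exact 95% intervals for counting error as bars. The bar and arrow of Mxd3 mark its upper limit from a floor of 3 counts. The upper end of its exact interval, 0.405, lies above that limit. Dashed lines mark 2-fold, and the dotted line marks the median of all genes. Mycn and Mnt stand past the upper dashed line, while Mxd4, Mlx and Mxd3 stand past the lower one.

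Transcript tables divided each gene's level among its annotated forms. Of 7 members with several transcripts and a mean of at least 5 TPM, 3 had a different leading transcript in the 2 libraries, namely Max, Mxi1 and Mlx, against 33.8% of 4695 such genes. With 3 of 7 the members lay close to that background share. The call for Mlx was lost in both alternatives: by expected counts Mlx-201 led in both libraries, and by posterior mean TPM Mlx-207 did.

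For Max, the form without the 27-base exon, Max-201, took 83.5% of the level in replicate 1 and 44.5% in replicate 2, and Max-202, which holds the exon, took 16.5% and 55.5%. In TPM, Max-201 stood at 71.1 and 39.2, and Max-202 at 14.1 and 48.9. The bounds that the authors' quantifier deposited around its posterior means were 67.4 to 72.2 TPM for Max-201 and 12.2 to 15.4 TPM for Max-202 in replicate 1, which do not overlap. In replicate 2 they were 12.9 to 48.9 and 14.7 to 50.1 TPM, so the forms could not be ranked there. Both libraries thus held reads assigned to each form, and Max-201 led clearly in replicate 1 only. The difference between the libraries in this share was not tested.

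For Mxi1, the transcript from the upstream start, Mxi1-201, took 62.2% in replicate 1 and 39.0% in replicate 2, and the downstream transcripts, Mxi1-202 and Mxi1-203, together took 37.8% and 61.0%. Mxi1-201 codes for 274 bases in its first exon, whereas the annotated start codon of Mxi1-202 lies in exon 2, so the forms differ at the start of the protein. Deposited bounds were 8.17 to 9.16 TPM for Mxi1-201 and 4.70 to 5.55 TPM for Mxi1-202 in replicate 1, and 2.86 to 5.47 and 4.80 to 7.91 TPM in replicate 2. The bounds overlapped in replicate 2 only. The total of Mxi1 was nearly equal in both libraries while the shares of its starts stood in opposite order.

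Mxd4-201, with the 30-base exon, led in both libraries with 75.3% and 85.3%, and Mxd4-202, without it, took the remaining 24.7% and 14.7%. The Mxd4-202 estimate rested on 249 counts in replicate 1 and 2.59 in replicate 2. Mxd1 was annotated with 1 transcript, and all 230 counts of Mxd3 in replicate 1 went to Mxd3-201.

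Mnt-201, the full coding form, took 82.6% and 97.2%, and Mnt-203, a model of 777 bases annotated as a retained intron, took 17.4% and 2.77%. Myc-208 took 80.8% and 94.9% of Myc, and Myc-202, with more untranslated sequence, took 18.1% and 4.61%. Mycn-201 took 99.4% and 81.4% of Mycn. The rest of Mycn in replicate 2 was Mycn-203, a noncoding form whose last exon lies in the first intron of Mycn-201, with 38.6 estimated counts in replicate 2 and 9.21 in the deeper replicate 1. Without it, Mycn-201 alone still stood at 74.7 and 170 TPM. Mlx-207, a model of 403 bases that skips the 90-base exon 3 and stops inside exon 5 of Mlx-201, took 54.8% and 29.4% of Mlx, and Mlx-201 took 37.4% and 64.8%, from 8 counts of the gene in replicate 2.

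**Figure D4:**
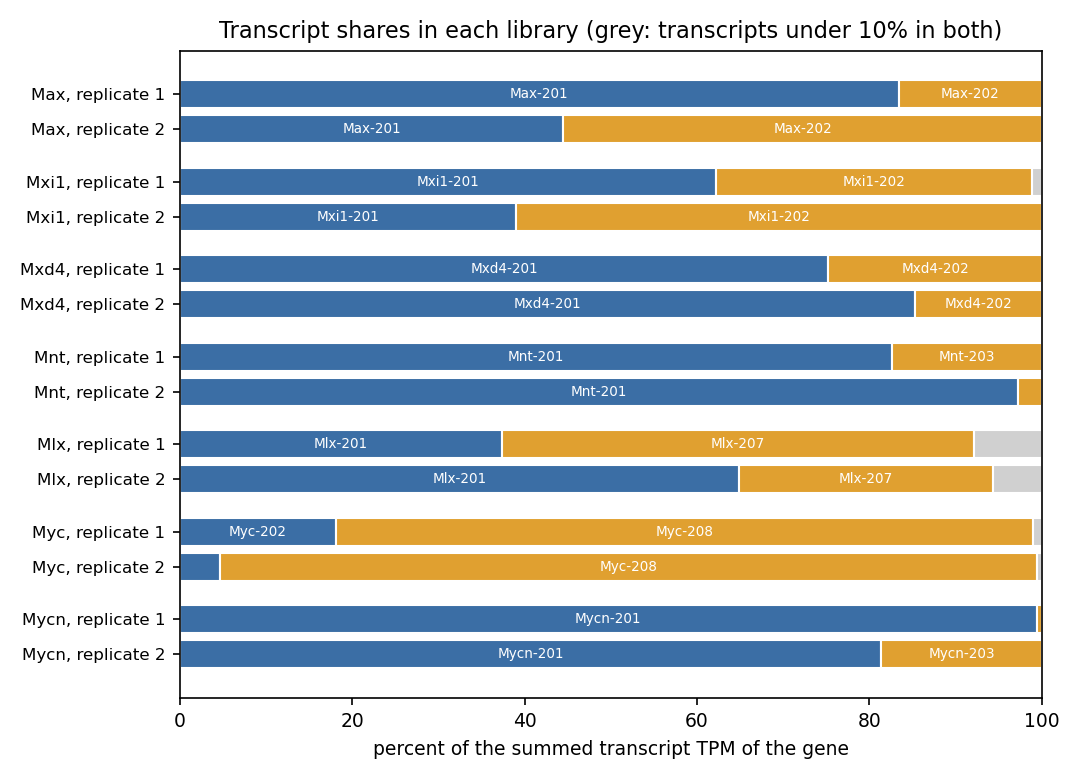
Share of each gene's summed transcript TPM (horizontal axis, percent) taken by transcripts with at least 10% in either library, for replicate 1 and replicate 2 of 7 members. The colour border shifts most in Max, from 83.5% to 44.5% for Max-201, and the leading form also changes in Mxi1 and Mlx.

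Genes that work with the network were taken from lists chosen with earlier results of these data known. The extended network was low: Mlxip, a MONDO partner of MLX, stood at 2.41 ± 0.962 TPM (mean ± SD, n = 2, here and below), Mga at 0.735 ± 0.629 and Mlxipl at 0.0600 ± 0.0849. All 10 SIN3 and NCOR corepressor genes reached a mean of 1 TPM, with Ncor1 at 122 ± 46.4 and Sin3b at 111 ± 24.9. Sin3a was the lowest at 2.25 ± 2.04, so of the paralogous scaffolds that MXD proteins recruit, Sin3b was the more abundant in each library, with 93.5 against 3.69 TPM and 128.7 against 0.800 TPM. None of these 10 was at least 2-fold higher in replicate 2 and 4 were lower, against 15.7% and 33.8% of all genes.

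All 12 MYC cofactor genes reached 1 TPM, with Cdk9, the elongation kinase, at 279 ± 193 and the helicase Ruvbl2 at 107 ± 23.9, down to Ccnt1, the cyclin partner of CDK9, at 3.17 ± 2.42. Among them 1 was at least 2-fold higher in replicate 2 (Cdk9, ratio 3.45) and 2 were lower, against 15.7% and 33.8% of all genes. Genes for MYC turnover were lower in level, with 7 of 10 at 1 TPM, among them the deubiquitinase Usp36 at 16.1 ± 2.56 and the kinase Gsk3b at 10.02 ± 6.28, and with Usp28 lowest at 0.0600 ± 0.0849. Of 7 turnover genes measured, 1 was at least 2-fold higher in replicate 2 (Gsk3b, ratio 3.50) and 2 were lower, against the same shares of 15.7% and 33.8%. Fbxw7, the ubiquitin ligase subunit that marks MYC for decay and is named here beside the listed extremes, stood at 2.57 and 3.48 TPM.

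Most listed MYC targets had counts in both libraries. Of the nucleolar targets Gnl3, chosen after its values were seen, had 382 counts in replicate 1 and 0 in replicate 2, and of the growth targets Eif4e had 245 and 0. All 14 nucleolar targets reached a mean of 1 TPM, led by nucleolin (Ncl) at 485 ± 584, fibrillarin (Fbl) at 122 ± 121 and Npm1 at 69.5 ± 88.9, and Polr1b was lowest at 2.04 ± 0.156. Of these 14, 0 were at least 2-fold higher in replicate 2 and 8 were lower, against 15.7% and 33.8% of all genes. Their median log2 ratio was -1.36 against -0.30. In the same library the macrophage and granulocyte markers had medians of -3.36 and -2.95, and their part in the target values was not tested. For Ncl the levels were 898 and 72.7 TPM, and the scaled ratio was 0.132 (0.110 to 0.158). The 12 growth and metabolism targets were mixed, with 3 of 11 measured at least 2-fold higher and 4 lower, against 15.7% and 33.8% of all genes. Their median was -0.52. They were led by Ldha at 1574 ± 56.9, Cdk4 at 551 ± 359 and spermidine synthase (Srm) at 302 ± 134, and Eif4e was lowest at 1.14 ± 1.61. Among the 3 MLX and MONDO targets, Txnip, their usual readout, stood at 21.4 TPM and, in replicate 2, at 4.11 TPM, Arrdc4 had 2.07 and 0 TPM, and Pklr 0.25 and 0 TPM.

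**Figure D5:**
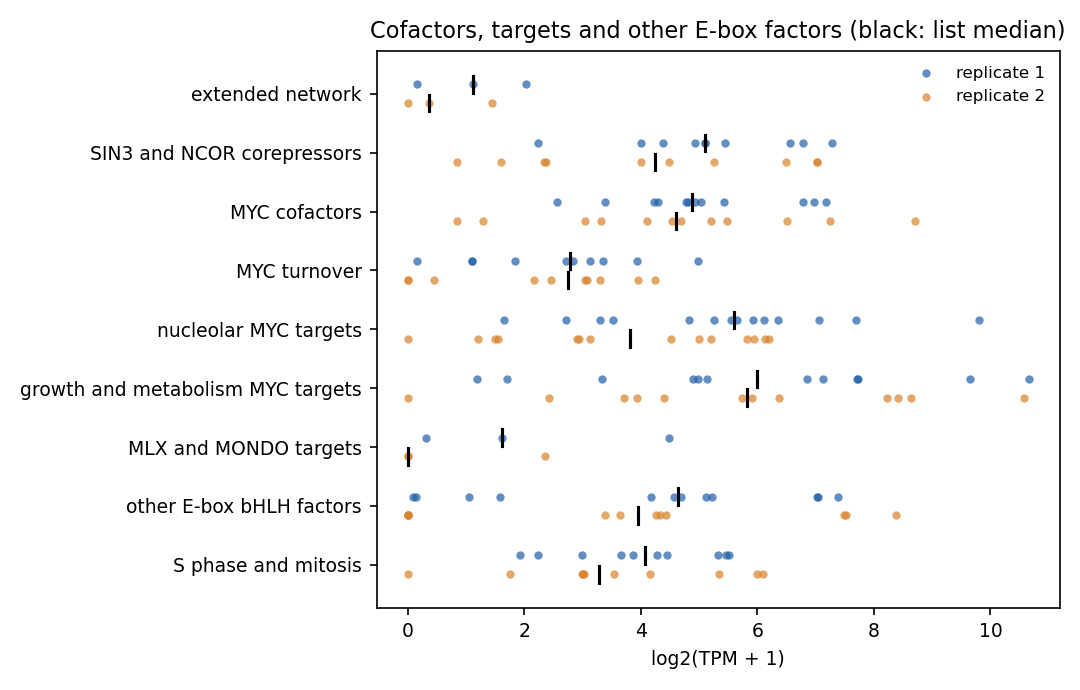
Levels of genes in 9 related lists as log2(TPM + 1), with 1 point per gene in replicate 1 (blue) and replicate 2 (orange) and a black bar at each list's median. The widest gap between the medians of the larger lists is that of the nucleolar targets, at 47.7 TPM in replicate 1 and 14.8 TPM in replicate 2.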

How the data were processed

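RNA-seq of 2 mouse megakaryocyte libraries was used as deposited, on mm10 with GENCODE M4 annotation per the file lists deposited beside the tables. For the aligner and quantifier, nothing is given in the sources used here. Expected counts, as per the file headers, are the authors' estimated fragments per gene or transcript. TPM and FPKM were scaled by the authors for length and depth, and isoform percent values were deposited with them. The deposited interval bounds around posterior mean TPM are a score of the quantifier, with no stated level.

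Rows of 43346 Ensembl genes were kept. The 26345 rows that name no such gene were left out (15 and 0 counts). Symbols, positions and exons came from GENCODE M21 (GRCm38, the assembly of mm10), matched by identifier without version for 42462 genes, and some M21 transcript models differ in length from M4. Promoter windows came from RefSeq on GRCm38.p6, and Myc had no entry.

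Expected counts were rounded and scaled with edgeR 4.0.16 in R 4.3.3 (TMM factors 1.16 and 0.860, from genes with a mean of at least 10 counts), with DESeq2 1.42.0 size factors, total counts and removal of a GC trend (lowess, span 0.3, statsmodels 0.14.6) as alternatives. The computation of ratios and intervals was checked on simulated counts with counting error only, scaled by total counts, so the TMM scaling was not checked. The members and all lists were chosen with earlier results of these data known. The text names all members, their transcripts at 10% or more, and the 3 highest and the lowest genes of each list, with exceptions stated. Values of some of these list genes are not reported here. With 2 libraries no likeness of pattern was computed. Python 3.11.15, pandas 2.3.3 and scipy 1.17.1 were used.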

Additional observations from a re-analysis of the deposited data

How the results depend on the processing

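The number of members at a mean of 1 TPM ran from 8 to 9 with 1 library left out, was 9 with FPKM, 8 at a level of 5 and 10 with posterior mean TPM, where Mycl received a level without counts. For these numbers the share over all genes is given only for the main setting, at 22.7%. Members at least 2-fold higher in replicate 2 numbered 1 in place of 2 with total counts (7.30% of all genes) and with the GC trend removed (15.1%). Members at least 2-fold lower numbered 1 in place of 3 with the GC trend removed (32.3% of all genes), and 1 of 7 at a mean of at least 10 CPM, a minimum added after the data were seen that leaves out Mlx and Mxd3 by its construction. The cause of the other moves was not tested. With a fold of 1.5 there were 3 higher (26.1% of all genes) and 3 lower (43.1%). Leading transcripts differed for 2 of 7 members, without Mlx, with expected counts (31.9% of all such genes) and with posterior mean TPM (36.1%). No paired analysis was possible because the labels give 1 group. The 2275920 counts of replicate 2 limit what is shown for Mlx, Mxd3, Mycl, Mxd4-202 and Mnt-203, each with 8 counts or fewer there.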

Other observations

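Other factors that read E-boxes were present beside the network. Of 12 listed, 9 reached a mean of 1 TPM, led by Srebf2, which drives sterol genes, at 230 ± 143.5 TPM (mean ± SD, n = 2), Usf2 at 172 ± 9.08 and Srebf1 at 156 ± 36.4, and Clock was lowest at 0.0350 ± 0.0495. Srebf2 stood at 128 TPM in replicate 1, below Myc, and at 331 TPM in replicate 2, above it. Of 8 measured, 1 was at least 2-fold higher in replicate 2 (Srebf2, ratio 3.05) and 2 were lower, against 15.7% and 33.8% of all genes.

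All 10 S phase and mitosis genes reached a mean of 1 TPM, led by cyclin A2 (Ccna2) at 53.8 ± 13.0, Aurkb at 53.1 ± 20.0 and Mcm2 at 41.3 ± 2.45, with Ccnb1 lowest at 1.86 ± 2.63. Of these, 0 were at least 2-fold higher in replicate 2 and 4 were lower, against 15.7% and 33.8% of all genes. Their median log2 ratio was -0.05 against -0.30 for all genes.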
